A study of Homo sapiens with 8 samples.

Results

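LSD1 occupancy was examined at the genes for β-catenin and its DNA-binding partners, CTNNB1, TCF7, LEF1, TCF7L1 and TCF7L2, in MDA-MB-231, an established line from human breast cancer. Members were the LSD1 peak summits in 5 fixed windows of hg19 (GRCh37), 1 per gene. These were chr3:41230000-41292000 for CTNNB1, chr5:133440000-133494000 for TCF7, chr4:108958000-109101000 for LEF1, chr2:85350000-85548000 for TCF7L1 and chr10:114700000-114938000 for TCF7L2. The windows held 111 summits from 4 lists. Summits of different lists at most 500 bp apart were joined, which gave 37 regions of the 68148 in the genome.

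The lists came from CUT&RUN with an LSD1 antibody in parental cells and in RCOR2-KO1 cells (KO1), 2 libraries each. In CUT&RUN, an MNase tethered to the antibody cuts out the bound chromatin for sequencing. KO1 cells had lost RCOR2 by CRISPR/Cas9. The methods state that several knockout clones were mixed, but after a description of MC38 cells, and they refer to earlier work for MDA-MB-231. Whether the KO1 cells used here were a mixture is thus not certain. Neither genotype received a treatment, and normal rabbit IgG libraries of both served the authors as input and carry no value here. Each list gives, for each peak, the single base of highest signal and a significance value, the −log10 of its p or q. There were 47354 and 54467 summits in parental replicates 1 and 2, and 49586 and 50119 in KO1 replicates 1 and 2. Because the −log10 value depends on depth, which is unknown here, libraries were compared by within-list percentile, where 100 is the strongest summit of a list. Nothing in these lists measures RCOR2 itself, so the knockout could not be checked from them.

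As background, LSD1 (KDM1A) removes methyl groups from lysine 4 of histone H3 and works in CoREST complexes, in which an RCOR protein joins it to HDAC1 or HDAC2. β-catenin does not bind DNA. On Wnt stimulation it enters the nucleus and binds TCF/LEF proteins, which recognise DNA through an HMG box and repress their targets with TLE corepressors when β-catenin is absent. The study placed RCOR2 upstream of β-catenin activity through repression of RNF43. It reported LSD1 at RNF43 and CIITA as unchanged in KO1 cells. The comparison here asks whether LSD1 at the genes for β-catenin and its partners differed when RCOR2 was lost.

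A region lay near the start of each gene, and at 4 of the 5 genes it was found in all 4 lists. No annotation of GRCh37 was used. The start was taken as the point 10 kb inside the window, which fits the RefSeq gene lengths of GRCh38 to within about 1 kb for all but TCF7. These lengths leave 10.3 to 10.8 kb on each side of the gene for CTNNB1, LEF1, TCF7L1 and TCF7L2, and 7.0 kb for TCF7, whose start is therefore less certain. The gene-start promoters of CTNNB1, TCF7L1 and TCF7L2 are shown because a shared LSD1 region lay near the start of each and RefSeq has a promoter entry at the 5′ end of the gene. The entries of LEF1 and TCF7 lie 2.63 kb and 7.40 to 15.4 kb inside the RefSeq gene, so they are not shown, although LEF1 also had a shared region at its start. A second TCF7L2 start is shown because a weaker region had the matching spacing. The sequences are from RefSeq (GRCh38.p14, plus strand), 250 bases before and 50 bases after the start, with the bases from the start onward in capitals. They span chr3:41199255-41199554, chr2:85133142-85133441, chr10:112949997-112950296 and chr10:113126383-113126682 in that build. As the windows place the starts, the CTNNB1 and TCF7L1 regions lay 0.694 to 1.17 kb and 0.058 to 0.365 kb downstream, outside the sequences shown. The TCF7L2 start region lay 0.182 to 0.219 kb upstream, inside the sequence of the first start. Since this placement holds only to about 1 kb, the side of the start on which each region lies is not settled. Nor is it settled whether a region falls inside a sequence. For TCF7L1, the RefSeq length leaves 10.5 kb on each side, which would put the start beyond the region and the region upstream of it. The sequences thus cannot be read as bound by LSD1.
CTNNB1: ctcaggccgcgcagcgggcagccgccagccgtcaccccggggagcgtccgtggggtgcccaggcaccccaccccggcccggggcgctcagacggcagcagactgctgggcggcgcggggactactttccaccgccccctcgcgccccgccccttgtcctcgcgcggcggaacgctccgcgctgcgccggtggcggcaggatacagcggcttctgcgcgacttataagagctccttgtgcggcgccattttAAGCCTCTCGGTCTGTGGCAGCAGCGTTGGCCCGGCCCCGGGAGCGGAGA
TCF7L1: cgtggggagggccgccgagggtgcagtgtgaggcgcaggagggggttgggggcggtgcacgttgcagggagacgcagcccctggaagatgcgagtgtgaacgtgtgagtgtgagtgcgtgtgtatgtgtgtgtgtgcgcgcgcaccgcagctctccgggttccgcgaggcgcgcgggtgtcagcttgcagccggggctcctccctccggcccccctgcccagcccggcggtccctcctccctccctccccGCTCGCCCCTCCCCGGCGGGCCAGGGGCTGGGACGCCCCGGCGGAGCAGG
TCF7L2, first start: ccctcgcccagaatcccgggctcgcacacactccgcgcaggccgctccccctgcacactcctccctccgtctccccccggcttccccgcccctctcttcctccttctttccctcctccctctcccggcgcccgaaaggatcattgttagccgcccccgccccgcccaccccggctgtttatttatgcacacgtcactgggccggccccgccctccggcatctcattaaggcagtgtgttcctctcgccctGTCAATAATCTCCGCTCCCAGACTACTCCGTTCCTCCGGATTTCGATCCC
TCF7L2, second start: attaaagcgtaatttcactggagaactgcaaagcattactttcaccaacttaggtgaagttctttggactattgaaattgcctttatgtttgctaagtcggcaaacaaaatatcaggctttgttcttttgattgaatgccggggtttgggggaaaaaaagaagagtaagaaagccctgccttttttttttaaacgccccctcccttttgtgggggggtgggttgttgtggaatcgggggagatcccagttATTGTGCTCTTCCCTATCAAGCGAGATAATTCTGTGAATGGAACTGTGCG

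The first 3 are CpG-rich, with 39, 31 and 25 CG dinucleotides in 300 bases, against a median of 14 over 35116 RefSeq promoter windows. Such counts are common, since 32.0% of those windows have at least 25. The second TCF7L2 start has 7. Among the entries not shown, that of LEF1 has 9, those of TCF7 have 25 and 3, and one more TCF7L2 start has 5. CTNNB1, TCF7, TCF7L1 and TCF7L2 thus each have an entry with 25 or more. The LEF1 entry lies 2.63 kb inside the gene, so the CG content at the LEF1 5′ end was not examined. The 6-letter core of the TCF/LEF motif, CTTTGA, or TCAAAG on the other strand, occurs in none of these 4 windows, nor in the other RefSeq start windows of the 5 genes. It occurs in 12.9% of all such windows, and its absence says only that these letters are not there.

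Of the 37 regions, 21 were found in all 4 lists, or 56.8%, against 52.6% of all regions in the genome. TCF7L2 had 10 of them, TCF7L1 had 4, TCF7 and LEF1 had 3 each, and CTNNB1 had 1. Per 100 kb of window, TCF7 carried 5.56 shared regions and TCF7L2 carried 4.20, against 2.08 and 1.31 in the 10 Mb bins that hold them. LEF1 and TCF7L1 were also denser than their bins, with 2.1 and 2.02 against 0.76 and 0.88. CTNNB1 was not, with 1.61 against 2.35. The stretches of equal length on either side gave another picture. Below and above the window, they held 3 and 1 shared regions for TCF7, 3 and 0 for LEF1, 7 and 9 for TCF7L1, 8 and 2 for TCF7L2 and 1 and 3 for CTNNB1. Thus at least 1 flank held as many shared regions as the window, or more, for every gene but TCF7L2. The other 16 regions were mostly weak. Of these, 9 were found in a single list, at a median percentile of 10.9, and 5 of the 9 came from parental replicate 2, which has the longest list.

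**Figure D1:**
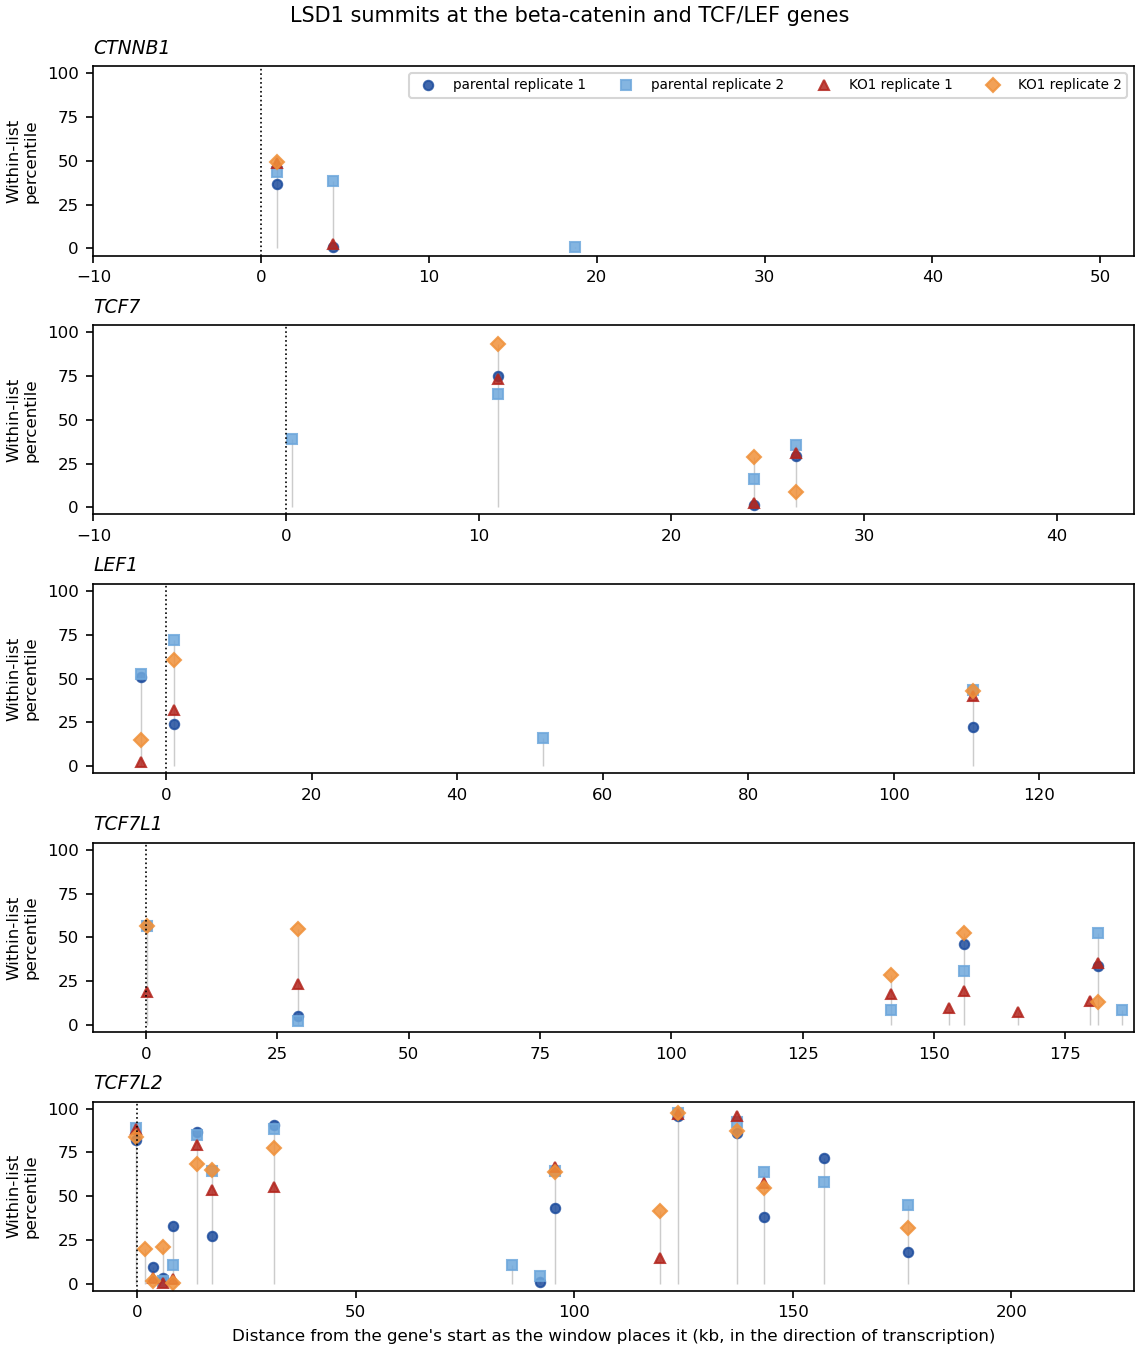
LSD1 summits in the 5 gene windows, with the distance from the gene's start in kb on the x axis (each panel spans its window) and the within-list percentile on the y axis; each point is a summit of 1 library and the dotted line is the gene's start. TCF7L2 carries 10 of the 21 regions found in all 4 lists, and a point near the dotted line is seen for every gene.

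**Figure D2:**
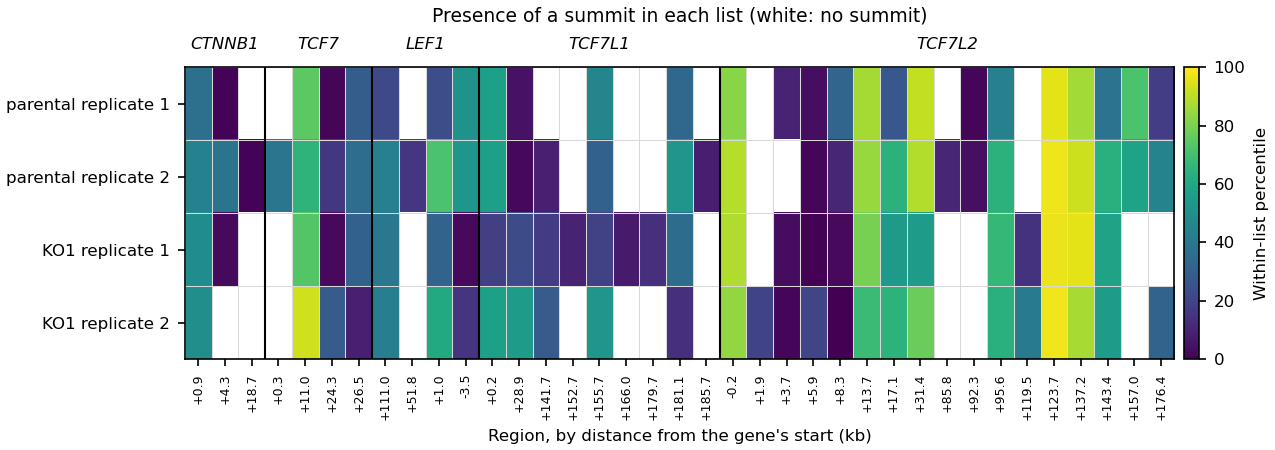
All 37 regions (columns, by gene in order of genome position, labelled with the distance from the gene's start in kb) in the 4 lists (rows), with the within-list percentile as colour and white where a list has no summit. The 21 columns without white are the regions found in all 4 lists.

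The genes differed in the rank of their strongest shared region. That of TCF7L2 had percentiles of 95.9 to 97.7 across the 4 libraries and lay above that of TCF7 in all of them, which spanned 64.9 to 92.9. The strongest regions of TCF7L1, LEF1 and CTNNB1 had mean percentiles of 47.1, 47.0 and 44.8, and their ranges overlapped one another. That of LEF1 also overlapped TCF7, whereas those of TCF7L1 and CTNNB1 lay below TCF7. Only 6 of the 21 shared regions stood at percentile 50 or more in every list, 5 of them at TCF7L2 and 1 at TCF7, a share of 28.6% against 46.3% of all shared regions in the genome. The median of the mean percentiles was 47.0 for the 21 regions and 60.1 for the genome.

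Between the genotypes, LSD1 at these genes showed no common direction. Of the 21 shared regions, 12 had a higher mean percentile in KO1 and 9 a lower one. Over the genome, 16998 shared regions were higher in KO1 and 18863 lower. The median difference of the 21, KO1 minus parental, was 0.583 percentile points, against -0.578 for all shared regions in the genome. Without parental replicate 1 this median was -2.83, and without KO1 replicate 2 it was -1.79. At 14 regions the difference was smaller than the larger of the SDs between replicates, a share not computed for the genome. The 2 KO1 libraries were both above both parental libraries at 2 regions (9.52%, against 19.6% in the genome) and both below at 4 (19%, against 22.4%). The members' shares were thus not above the background in either direction. With 2 libraries against 2, the exact permutation test (two-sided) cannot go below 0.333, so no difference here can pass 0.05.

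**Figure D3:**
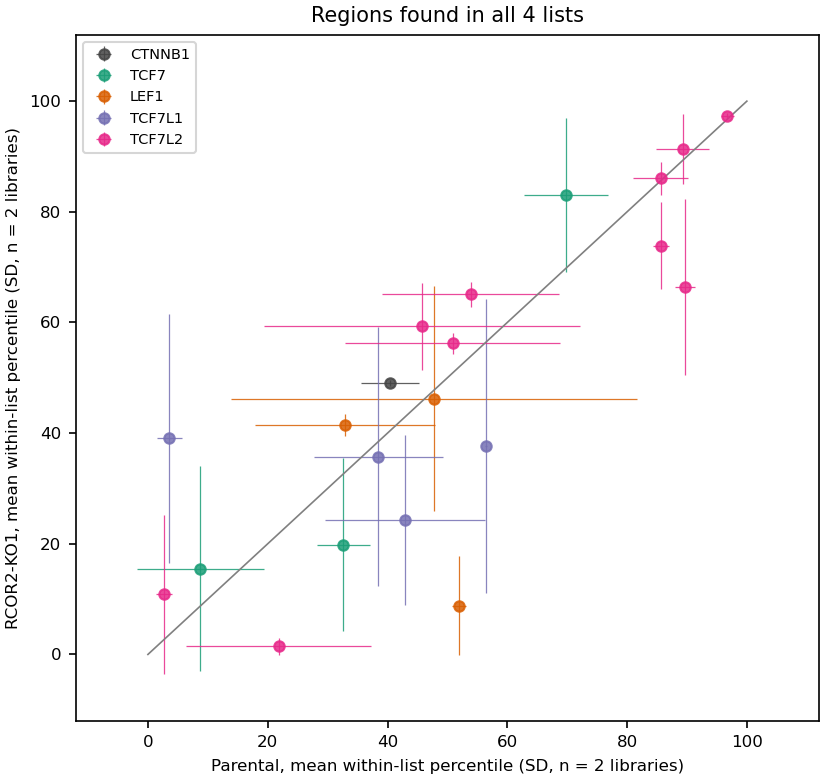
Mean within-list percentile in KO1 (y axis) against parental cells (x axis) for the 21 regions found in all 4 lists, coloured by gene; bars are the SD of 2 libraries and the line marks equality. The TCF7L2 regions with the highest mean over all 4 libraries (97.0 and 90.4) lie near the line at the upper right, and another TCF7L2 region lies below it at 89.6 in parental and 66.4 in KO1 cells. A LEF1 region at 51.9 in parental and 8.83 in KO1 cells and a TCF7L1 region at 3.57 and 39.1 lie farthest from it.

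CTNNB1 encodes β-catenin, the coactivator at the centre of the pathway. Its 1 shared region lay at chr3:41240694-41241171, 0.694 to 1.17 kb into the gene as the window places it. The −log10 values were 12.3 and 15.4 in the parental libraries and 17.1 and 16.0 in the KO1 libraries. These stood at percentiles 37.0 and 43.9 in parental and 48.7 and 49.5 in KO1 cells, so both KO1 libraries were above both parental ones. The means were 40.4 ± 4.87 and 49.1 ± 0.585 (SD, n = 2 each), a difference of 8.66 (p = 0.333 by the two-sided exact permutation test, its minimum). Without parental replicate 1 the difference was 5.22. A difference at least as large in this direction was found at 22.2% of all shared regions in the genome. A further region, chr3:41243927-41244580, had percentiles of 0.864 and 38.5 in parental replicates 1 and 2 and of 2.39 in KO1 replicate 1, with no summit in KO1 replicate 2. A summit at 41258716 was found in parental replicate 2 alone, at percentile 1.01. The 10 Mb bin around CTNNB1 had a median difference of -0.565.

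TCF7 encodes TCF1, known best from T cells and itself induced by Wnt signaling in several tissues. At its start as the window places it, a summit at chr5:133450303 was found in parental replicate 2 alone, at percentile 39.3. The strongest region of the gene lay 10.9 to 11.1 kb from that start, at chr5:133460902-133461086. Since RefSeq (GRCh38) has entries 7.40 and 15.4 kb inside the gene, this region may lie nearer to another TCF7 start. Its −log10 values were 34.4 and 29.2 in parental and 34.4 and 63.5 in KO1 cells, at percentiles of 74.7, 64.9, 73.3 and 92.9. KO1 replicate 2 was thus above the other 3 libraries, and KO1 replicate 1 lay between the parental ones. The means were 69.8 ± 6.95 and 83.1 ± 13.9 (SD, n = 2 each), which differed by less than the KO1 libraries did from each other. A weaker region, chr5:133474226-133474390, had percentiles of 1.32 and 16.2 in parental and 2.37 and 28.6 in KO1 cells. The next, chr5:133476329-133476596, had 29.5 and 35.8 in parental and 30.9 and 8.81 in KO1 cells. KO1 replicate 2 was thus the highest of the 4 libraries at the first and the lowest at the second, and the genotypes overlapped at both. The bin's median difference was -0.861.

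LEF1 encodes a TCF/LEF protein that carries an HMG box like the others and is itself a frequent Wnt target. Its start region, chr4:109089838-109090123, had the largest SD between the parental replicates of the 21 regions. The percentiles were 23.8 and 71.7 in parental and 31.8 and 60.6 in KO1 cells, with −log10 values of 8.39, 35.9, 10.4 and 21.8. The genotypes overlapped fully there, at 47.8 ± 33.9 and 46.2 ± 20.3 (SD, n = 2 each). Near the other end of the gene, chr4:108980019-108980064 had percentiles of 22.2 and 43.5 in parental and 40.0 and 42.8 in KO1 cells, which also overlapped. A summit inside the gene, at 109039181, was found in parental replicate 2 alone at percentile 15.9.

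The largest difference of the 21 regions lay upstream of LEF1, at chr4:109094491-109094534, 4.37 to 4.70 kb from the start region. In RefSeq (GRCh38), the antisense gene LEF1-AS1 overlaps the first 1.41 kb of LEF1 and reaches 7.5 kb beyond its 5′ end, and the region lay 3.49 to 3.53 kb upstream as the window places it. The −log10 values were 17.8 and 20.2 in the parental libraries and 3.49 and 5.86 in the KO1 libraries. The percentiles were 51.0 and 52.7 in parental and 2.48 and 15.2 in KO1 cells, so both KO1 libraries were low in their lists and both parental ones near the middle. The means were 51.9 ± 1.16 and 8.83 ± 8.98 (SD, n = 2 each), a difference of -43.0 (p = 0.333 by the two-sided exact permutation test, its minimum). It lay between -49.4 and -36.7 with each library left out in turn. A fall at least as large was found at 0.455% of the shared regions in the genome. It was singled out as the largest of 21, and the summits of the 4 libraries lay within 43 bp. The start region of the same gene differed by -1.57, and the bin's median difference was 0.0283.

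TCF7L1 encodes TCF3, which acts mostly as a repressor of Wnt targets. Its start region, chr2:85360058-85360365, had percentiles of 56.4 and 56.6 in parental and 18.9 and 56.5 in KO1 cells. KO1 replicate 1 alone stood low, and without it the difference was 0.0507 in place of -18.8. At chr2:85388848-85388895, 28.8 to 28.9 kb into the gene, the percentiles were 5.02 and 2.13 in parental and 23.2 and 55.0 in KO1 cells, from −log10 values of 4.47, 3.37, 8.08 and 18.9. Both KO1 libraries were above both parental ones there, where the summit was among the weakest of the parental lists. The means were 3.57 ± 2.05 and 39.1 ± 22.5 (SD, n = 2 each), a difference of 35.5 (p = 0.333 by the two-sided exact permutation test, its minimum), and it was 19.6 without KO1 replicate 2 and 51.4 without KO1 replicate 1. A rise at least as large was found at 1.26% of all shared regions.

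The other shared regions of TCF7L1 lay toward or beyond its 3′ end. That at chr2:85515686-85515728 had percentiles of 46.1 and 30.9 in parental and 19.2 and 52.3 in KO1 cells. That at chr2:85541118-85541167 had 33.5 and 52.4 in parental and 35.2 and 13.4 in KO1 cells. The genotypes overlapped at both. A region at chr2:85501723-85501745 was missing from parental replicate 1 alone, with percentiles of 8.63, 17.7 and 28.6 in the other lists. Single summits were found at 85512748, 85526026 and 85539720 in KO1 replicate 1 and at 85545705 in parental replicate 2, none above percentile 13.6. No shared region of TCF7L1 ranked high, whereas the flanking stretches of equal length had top mean percentiles of 95.8 and 97.9. The bin's median difference was 0.0407.

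TCF7L2 encodes TCF4, the TCF/LEF protein of many epithelia and a partner of β-catenin in colorectal cancer. Its start region, chr10:114709781-114709818, was strong in every library. The −log10 values were 43.2 and 64.8 in parental and 57.2 and 43.4 in KO1 cells, at percentiles of 82.3, 88.9, 88.1 and 84.0. The genotype means were 85.6 ± 4.63 and 86.0 ± 2.92 (SD, n = 2 each), which overlapped, and all 4 values lay above those of the start regions of the other genes. The 2 regions that ranked highest lay deep in the gene. At chr10:114833616-114833764, the percentiles were 95.9 and 97.5 in parental and 96.9 and 97.7 in KO1 cells, with −log10 values of 79.6, 110.2, 94.9 and 89.1. At chr10:114847031-114847309, they were 86.2 and 92.4 in parental and 95.9 and 86.9 in KO1 cells. At both the genotypes overlapped, with differences of 0.583 and 2.1.

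Both KO1 libraries were below both parental ones at 3 of the 10 shared TCF7L2 regions, against 22.4% of all shared regions in the genome. All 3 lay within the first 31.5 kb of the gene, a limit set by the farthest of the 3. This stretch held 6 of the 10 if the start region, placed 0.182 to 0.219 kb upstream, is counted. The strongest of them, chr10:114741344-114741460, had percentiles of 90.9 and 88.4 in parental and 55.2 and 77.7 in KO1 cells, from −log10 values of 60.0, 63.5, 20.6 and 35.5. The means were 89.6 ± 1.72 and 66.4 ± 15.9 (SD, n = 2 each), a difference of -23.2 (p = 0.333 by the two-sided exact permutation test, its minimum). It was -34.5 without KO1 replicate 2 and -11.97 without KO1 replicate 1, and a fall at least as large was found at 6.03% of all shared regions.

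At chr10:114723636-114723759, the percentiles were 86.6 and 84.8 in parental and 79.4 and 68.3 in KO1 cells, with a difference of -11.8 (p = 0.333 by the two-sided exact permutation test) that was -6.24 without KO1 replicate 2. The third, chr10:114718280-114718328, was weak, at percentiles of 32.8 and 10.9 in parental and 2.54 and 0.387 in KO1 cells, a difference of -20.4 (p = 0.333 by the two-sided exact permutation test) that was -9.39 without parental replicate 1 and -31.3 without parental replicate 2. Between them, chr10:114727108-114727185 did not follow, with percentiles of 27.0 and 64.4 in parental and 53.8 and 64.8 in KO1 cells. Nor did the weak region at chr10:114715865-114715997, with mean percentiles of 2.68 ± 1.30 and 10.9 ± 14.4 (SD, n = 2 each). Farther along, chr10:114805610-114805629 had percentiles of 43.4 and 64.4 in parental and 66.7 and 63.5 in KO1 cells. The last shared region, chr10:114853417-114853432, had 38.1 and 63.6 in parental and 57.6 and 54.9 in KO1 cells. The genotypes overlapped at both. The bin's median difference was 1.08.

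**Figure D4:**
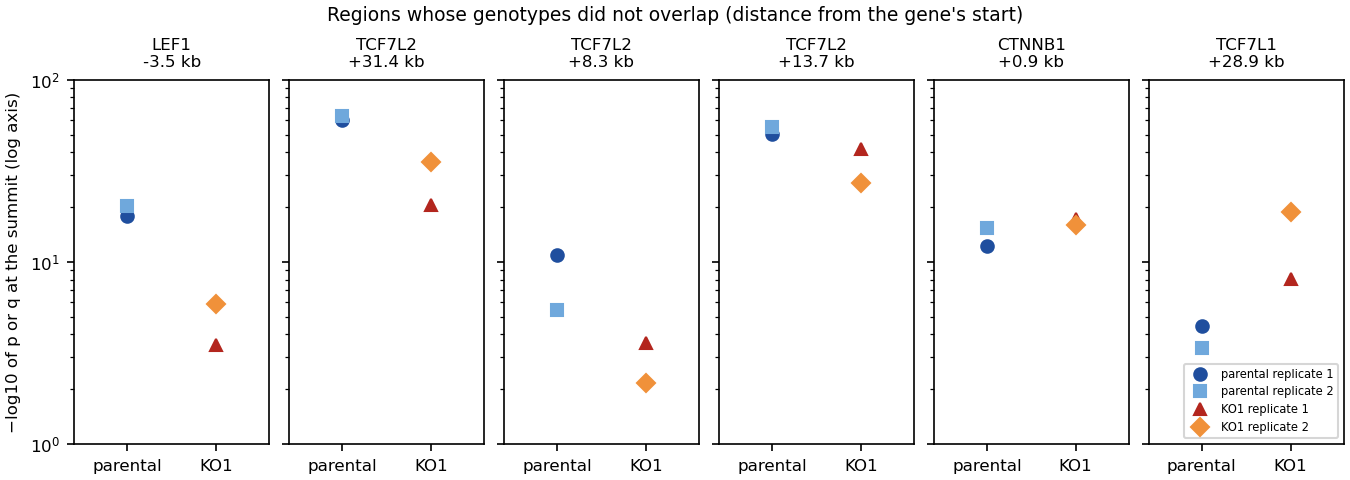
The −log10 value at the summit (log axis) in each library for the 6 shared regions whose genotypes did not overlap in percentile, from the largest fall to the largest rise, each with its distance from the gene's start. The LEF1 region falls from 17.8 and 20.2 in parental to 3.49 and 5.86 in KO1 cells, and the TCF7L1 region rises from 4.47 and 3.37 to 8.08 and 18.9.

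The 3 regions that both lists of 1 genotype held and both lists of the other lacked were all at TCF7L2. Regions of both parental lists alone made up 2 of the 37 (5.41%, against 4.24% in the genome), and regions of both KO1 lists alone made up 1 (2.70%, against 3.62%). The parental region chr10:114867006-114867042 had percentiles of 71.5 and 57.9 and −log10 values of 31.3 and 23.6, and the nearest KO1 summit was 13.6 kb away. Of the 2888 parental-only regions in the genome, 6.79% had a mean percentile as high. The other parental region, chr10:114802251-114802260, was at the bottom of its lists, at percentiles of 1.25 and 4.18. The KO1 region, chr10:114829499-114829585, had percentiles of 14.8 and 41.7, and a parental summit lay 4.03 kb away.

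At about the spacing of the second TCF7L2 start, chr10:114886291-114886565 had percentiles of 18.1 and 44.9 in parental replicates 1 and 2 and of 31.7 in KO1 replicate 2, with no summit in KO1 replicate 1. It lay 176.5 to 176.8 kb from the first start region, and the RefSeq starts lie 176.4 kb apart in GRCh38. The remaining regions were a summit at 114711903 in KO1 replicate 2, at percentile 20.1, one at 114795809 in parental replicate 2, at 10.9, and chr10:114713630-114713775, which was missing from parental replicate 2 and had percentiles of 9.61, 3.51 and 1.84 elsewhere.

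Averages over the shared regions of a gene combine regions that differed in opposite directions, such as 35.5 and -18.8 at TCF7L1. The mean percentile was 62.2 ± 4.96 in parental and 60.8 ± 1.59 in KO1 cells at TCF7L2, 37.1 ± 2.69 and 39.5 ± 5.62 at TCF7, and 35.4 ± 0.176 and 34.2 ± 14.3 at TCF7L1 (SD, n = 2 each). At LEF1 it was 44.2 ± 16.7 and 32.1 ± 10.4, a difference of -12 to which the upstream region contributed most. For these 4 genes the libraries of the genotypes overlapped. For CTNNB1 the value is that of its single region.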

How the data were processed

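Per the labels and the study's methods, CUT&RUN libraries were made with LSD1 or IgG antibody, and the authors called peaks per library with MACS2 2.1.0 against IgG. The submitters' processing notes also name FastQC 0.11.2, Bowtie2 2.3.3.1, Picard and hg19. The threshold is not given in the sources used here. The deposited values are the −log10 of a p or q value at each summit. The lowest in each list was 1.31 to 1.40, just above −log10 of 0.05.

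Values were computed in Python 3.11.15 with scipy 1.17.1, numpy 2.4.6 and pandas 2.3.3. The percentile is the share of a list at or below a summit's value. Summits on chromosomes 1 to 22 and X at most 500 bp apart were chained into regions, and a region belonged to a window by its midpoint. Genotypes were compared by difference of means with the exact permutation test. The steps were tested on simulated lists of isolated regions, with shifts far larger than the simulated noise. That test does not show how they perform on regions as close, or replicates as variable, as those here. The methods state that CUT&RUN was done 2 times. The labels name no separate cultures, so the spread between these libraries may be technical. The exact permutation test gives its minimum wherever the genotypes do not overlap, whatever the size of the difference.

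All regions in all 5 windows are given; percentiles in full were required for the 2 strongest shared regions of each gene, the 2 nearest its ends and the 2 that differed most, and every region of 1 genotype is named. Members and windows were chosen with earlier results of these data known. Other Wnt pathway genes were not analysed here, since they need an annotation of GRCh37. The 5 genes were matched by symbol to RefSeq gene and promoter tables (GRCh38.p14, 35116 windows of 27305 genes). No coordinates were converted between builds. Alternatives were joining distances of 250 and 1000 bp, windows narrowed by 10 kb, the upper 50% of every list, lists of equal length, percentiles among shared regions, each library left out and the replicate number as a block.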

Additional observations from a re-analysis of the deposited data

How the results depend on the processing

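Among the alternatives that kept all 4 libraries, the number of regions found in all 4 lists, 21, fell to 6 when only the upper 50% was kept, and the number whose genotypes did not overlap, 6, fell to 2, with fewer summits by construction. With lists of equal length, 16 regions were shared, and 3 of the 6 non-overlapping ones (109094491, 85388848 and 114718280) were no longer among them, while 6 of the 16 did not overlap. With percentiles among shared regions, 9 of the 21 did not overlap. The share over the genome was computed for the main setting only. No count under an alternative, here or below, can therefore be read as a result about the members. The median difference, 0.583, was 3.74 with windows narrowed by 10 kb. With 1 library left out, which leaves 1 genotype with a single library, non-overlap is easier to meet by construction. It was then met at 11 to 15 regions, and the median difference ranged from -2.83 to 5.24. The labels do not say whether libraries with the same replicate number were run as a pair. The differences between replicates had a correlation of 0.00722 between genotypes across all shared regions, so no effect common to a replicate number was seen. With the replicate block, 10 of the 21 regions moved the same way in both pairs, a condition that asks less than non-overlap. The median difference of 0.583 is unchanged by construction.

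The mean difference of LEF1, -12, became 3.50 with windows narrowed by 10 kb and 3.76 with lists of equal length, since both settings drop the upstream region. That of TCF7L1, -1.17, became 4.66 with narrowed windows, which drop its last region, and -12.9 with lists of equal length, which drop 85388848. With the upper 50%, the mean difference was 13.3 in place of 2.40 at TCF7 and -6.38 in place of -1.39 at TCF7L2. Over the libraries left out in turn, the mean difference ranged from -23.8 to -0.205 at LEF1, from -1.57 to 6.37 at TCF7, from -11.3 to 8.91 at TCF7L1 and from -4.89 to 2.12 at TCF7L2.

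Of the 21 single regions, 11 changed sign when a library was left out. The ranges were from -2.06 to 19.2 at 108980019, from -25.5 to 22.4 at 109089838, from -6.40 to 19.8 at 133474226, from -37.6 to 0.0507 at 85360058, from -19.3 to 13.8 at 85515686, from -2.83 to 3.71 at 114709781, from -1.96 to 18.4 at 114715865, from -5.07 to 32.2 at 114727108, from -0.210 to 1.38 at 114833616, from -2.37 to 6.57 at 114847031 and from -7.35 to 18.1 at 114853417. The difference at 85515686, -2.74, was 0.184 with percentiles among shared regions. On the log2 scale of the value over its list median, chosen after seeing the data, the difference at 114709781 was -0.00484, and the other 20 regions kept their sign. The files give no depth, so no counting error could be set beside a percentile.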
